A study of Arabidopsis thaliana with 6 samples.

Results

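Class III peroxidases are the secreted haem peroxidases of plants, named PER1 to PER73 in Arabidopsis. The 60 genes described here were given by locus, out of 33977 genes and other features listed in each count file, and all 60 were found in the files and in the RefSeq gene table. Each locus is given where its gene is first described. The study sequenced messenger RNA from whole wild-type plants of the Arabidopsis thaliana accession Col-0, aged 10 days and kept at 22 °C with 16 h light and 8 h dark each day. The CsCl group (3 libraries) grew on half-strength MS, a mineral plant medium, containing 1.5 mM cesium chloride, and the Mock group (3 libraries) grew on the same medium without it. Cesium is an alkali metal ion that resembles potassium. The labels do not say whether libraries of a group came from separate cultures, so p-values measure the spread between these libraries, which may be technical. Plants were taken whole, so for any root or shoot transcript fewer cells of a type and less RNA per cell cannot be told apart.

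Class III peroxidases use hydrogen peroxide in the cell wall to oxidise phenolic compounds and wall proteins. They couple lignin monomers in xylem and in the Casparian strip, the lignin ring that seals the root endodermis, and they crosslink extensins in growing root hairs. Some also produce reactive oxygen species themselves, as in the apoplastic oxidative burst after pathogen recognition. PER3 (AT1G05260), also called RCI3, is known to take part in the production of reactive oxygen species by potassium-deprived roots.

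With CsCl, 4 peroxidase genes were higher and 6 were lower. Those higher were PER71, PER33, PER52 and PER25, genes known from defence, the oxidative burst and lignin formation. Whether the PER33 counts include reads of its similar and more abundant neighbour PER34 was not tested. Those lower were PER72 and PER64, which build the Casparian strip, and PER42, PER45, PER21 and PER55. Expression is given as CPM, the count scaled to library size. PER52 had the largest fold, with 0.934 ± 0.501 CPM with CsCl and 0.120 ± 0.0540 CPM in Mock (mean ± SD, n = 3 per group here and below), but it rests on few counts. PER71 was 2.12 times as high with CsCl, while the 6 lower genes ran from 0.702 times the Mock level for PER55 to 0.845 times for PER21.

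Of the 60 members 55 had enough counts to be tested. The 10 called members were 18.2% of these 55, where a call is an adjusted p under 0.05 over all 21005 tested genes (edgeR quasi-likelihood test, Benjamini-Hochberg). Among all tested genes 2.16% were called, 0.843% higher and 1.32% lower, and among the 12225 with a mean of at least 10 CPM 2.52% were. Members and role groups were chosen with earlier results of these data known. The shares of members and role groups called are therefore a description and not a test. The 3 CsCl libraries lay entirely above the 3 Mock libraries in 9 members and entirely below in 14, together 41.8% of those tested. Over all tested genes the groups did not overlap in 19.8%, made up of 10% above and 9.75% below. The median log2 fold change (CsCl over Mock) was -0.065 over the members and 0.0052 over all tested genes, and the members ran from -0.54 to 2.96. The calls came to 2 higher and 1 lower when CsCl replicate 2 was left out, to 2 and 3 without CsCl replicate 3 or without Mock replicate 3, and to 7 and 4 without Mock replicate 1. With library totals as the only scaling 4 were higher and 3 lower, and DESeq2 called 5 higher and 8 lower. Summed over the 60 members, expression was 2979.9, 2807.2 and 2866.6 CPM with CsCl and 3208.6, 3174.0 and 3257.2 CPM in Mock. The summed level was thus lower in every CsCl library than in any Mock library. PER42 alone held 34.1% of the summed CPM, averaging 944.2 CPM with CsCl and 1134.5 CPM in Mock. The near-equal counts of PER1 and PER2 are both in the sums.

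**Figure D1:**
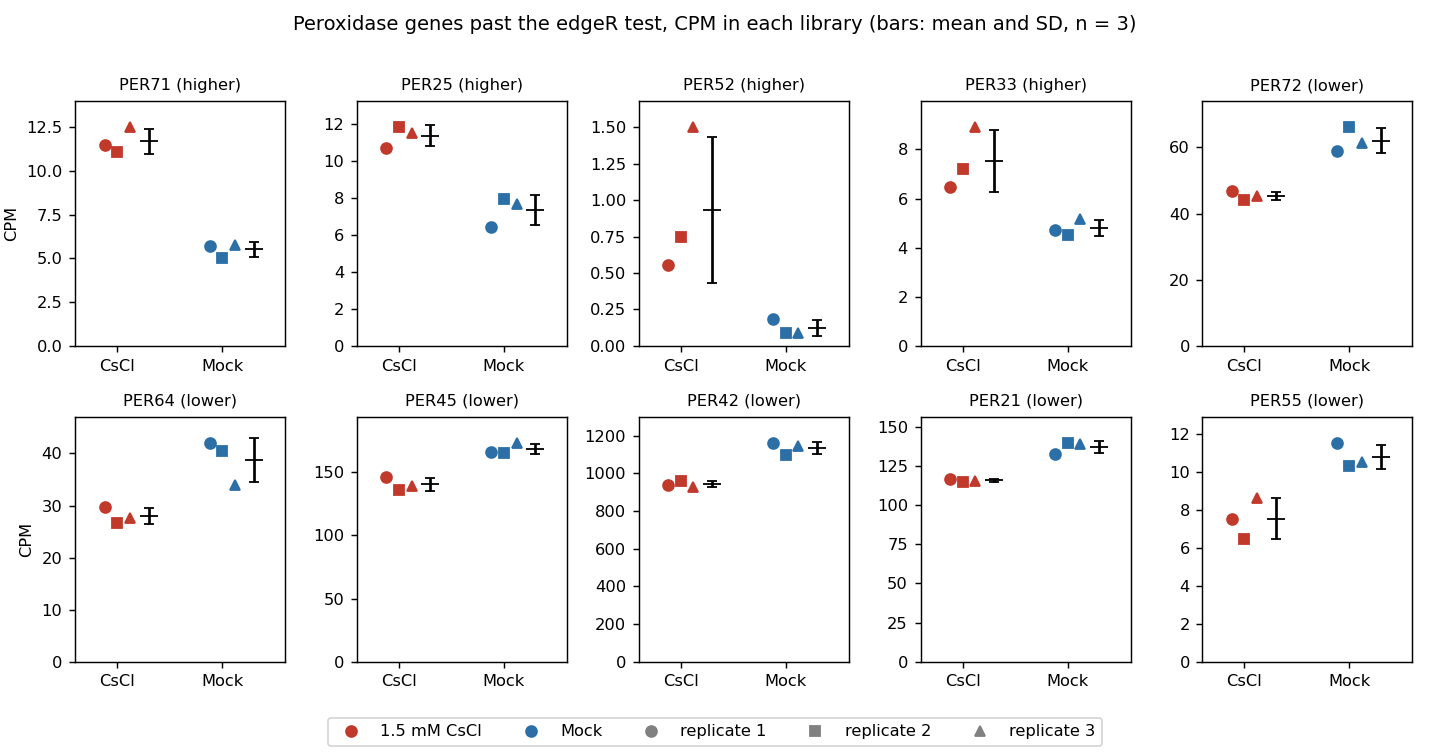
Expression in CPM (vertical axes, each from 0) of the 10 peroxidase genes past the test, with CsCl libraries on the left of each panel and Mock libraries on the right. Symbols give the replicate number, and bars give the mean and SD of 3 libraries. In all 10 panels the groups do not overlap, and CsCl replicate 3 stands highest of its group for PER52, PER33, PER71 and PER55.

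Each library held between 32075069 and 44108369 counts, with CsCl replicate 3 the deepest. Of counts between 1 and 50, from 65.5% to 73.4% were even in each library. If both mates of a read pair were counted, a low count holds fewer fragments than it shows, and with all counts divided by 2 before the fit 3 members were higher and 6 lower. Among markers of cell types, 2 of 6 endodermis genes and 2 of 6 root hair genes were lower and none was higher. Of all tested genes 1.32% were lower and 0.843% higher. None of 7 xylem markers and none of 6 leaf markers was called in edgeR, DESeq2 or limma-voom. In edgeR 0 and 1 of them had an unadjusted p under 0.05, against 14.4% of all tested genes.

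The 300 bases before the annotated start are shown for the 3 higher and the 3 lower members with the smallest adjusted p, to set the upstream sequence of both directions side by side. They were read from RefSeq TAIR10.1 and are written 5′ to 3′ on the gene's strand. PER71 is at chr5:25661008-25661307 (minus strand), PER25 at chr2:17298726-17299025 (minus strand), PER52 at chr5:1580876-1581175 (minus strand), PER72 at chr5:26517600-26517899 (minus strand), PER64 at chr5:16852328-16852627 (plus strand) and PER45 at chr4:14762519-14762818 (plus strand). Capitals mark matches on either strand to 6 motifs: the W-box core TTGAC, which WRKY factors bind, the as-1 core TGACG, the G-box CACGTG, the AC element I ACCTACC and the AC element II ACCAACC of lignin genes, and the TATA core TATAAA. A W-box core and an as-1 core can share bases.
PER71: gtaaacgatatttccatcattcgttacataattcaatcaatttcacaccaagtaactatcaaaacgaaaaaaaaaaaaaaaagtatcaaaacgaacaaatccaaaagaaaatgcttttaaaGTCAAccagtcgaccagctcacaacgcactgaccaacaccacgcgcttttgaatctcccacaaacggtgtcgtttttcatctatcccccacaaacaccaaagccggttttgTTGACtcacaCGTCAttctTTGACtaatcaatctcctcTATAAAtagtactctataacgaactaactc
PER25: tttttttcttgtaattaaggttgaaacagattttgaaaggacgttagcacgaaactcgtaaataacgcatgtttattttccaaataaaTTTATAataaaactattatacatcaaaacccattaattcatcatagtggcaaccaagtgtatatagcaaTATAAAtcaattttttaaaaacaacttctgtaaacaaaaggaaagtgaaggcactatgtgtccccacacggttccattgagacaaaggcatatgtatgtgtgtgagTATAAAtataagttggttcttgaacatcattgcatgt
PER52: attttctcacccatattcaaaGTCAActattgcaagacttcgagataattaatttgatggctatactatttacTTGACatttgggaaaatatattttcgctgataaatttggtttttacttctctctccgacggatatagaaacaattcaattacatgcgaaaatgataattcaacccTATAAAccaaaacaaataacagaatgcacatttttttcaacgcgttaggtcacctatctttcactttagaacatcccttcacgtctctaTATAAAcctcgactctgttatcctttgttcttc
PER72: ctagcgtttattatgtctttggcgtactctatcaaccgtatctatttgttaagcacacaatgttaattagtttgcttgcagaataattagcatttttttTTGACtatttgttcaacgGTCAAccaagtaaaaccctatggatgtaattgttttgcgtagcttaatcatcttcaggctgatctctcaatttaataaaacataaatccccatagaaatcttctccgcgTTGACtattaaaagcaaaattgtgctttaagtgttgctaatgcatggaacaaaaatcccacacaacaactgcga
PER64: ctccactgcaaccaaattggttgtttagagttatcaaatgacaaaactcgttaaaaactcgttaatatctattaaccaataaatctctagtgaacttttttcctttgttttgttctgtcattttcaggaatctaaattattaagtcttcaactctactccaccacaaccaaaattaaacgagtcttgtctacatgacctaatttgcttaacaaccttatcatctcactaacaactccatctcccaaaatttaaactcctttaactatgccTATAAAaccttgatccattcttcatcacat
PER45: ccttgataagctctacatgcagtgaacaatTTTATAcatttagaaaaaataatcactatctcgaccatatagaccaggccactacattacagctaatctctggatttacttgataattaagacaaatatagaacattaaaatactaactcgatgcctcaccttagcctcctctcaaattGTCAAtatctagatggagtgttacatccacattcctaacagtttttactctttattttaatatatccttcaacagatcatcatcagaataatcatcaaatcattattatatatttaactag

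PER71 held 3 W-box cores, 1 as-1 core and a TATA core, and PER72, which was lower, also held 3 W-box cores. PER52 held 2 W-box cores and PER45 held 1, while PER25 and PER64 held none. Of the 60 members 29 had a W-box core in this window (48.3%) and 12 an as-1 core, against 50.4% and 21.3% of the 27443 windows of the same length before all protein-coding genes, members included. G-boxes were in 1.67% of the members and 7.09% of all, AC element I in 0 members and 1.33% of all, AC element II in 3.33% and 3.18%, and the TATA core in 55.0% and 52.9%. The members' shares of the W-box, as-1 and TATA cores were thus within a few percentage points of those of all genes.

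Among the 6 peroxidases of the apoplastic burst and defence, 2 of the 5 tested were higher and none was lower. PER71 (AT5G64120), which acts in defence and in lignin formation, had 11.5, 11.1 and 12.5 CPM with CsCl and 5.73, 5.05 and 5.76 CPM in Mock. Each CsCl library was well above every Mock library (log2 fold change 1.09 ± 0.11, adjusted p = 0.000124 in edgeR; ± is the SE for log2 fold changes throughout). The call was kept in all 17 other fits, with log2 fold changes of 1.02 to 1.13. PER33 (AT3G49110), which with PER34 generates much of the oxidative burst after elicitation, had 6.45, 7.22 and 8.90 CPM with CsCl and 4.72, 4.51 and 5.17 CPM in Mock. CsCl replicate 3 was the highest and the groups did not overlap (log2 fold change 0.65 ± 0.14, adjusted p = 0.0292 in edgeR). The call was lost without Mock replicate 2 or 3 and without CsCl replicate 2 or 3.

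PER34 (AT3G49120) narrowly missed the test. It had 58.3, 57.9 and 86.8 CPM with CsCl and 54.2, 41.3 and 41.9 CPM in Mock, which is no overlap, with CsCl replicate 3 and Mock replicate 1 the highest of their groups (log2 fold change 0.57 ± 0.14, adjusted p = 0.0508 in edgeR). It passed without CsCl replicate 1, without Mock replicate 1, with no filter on low counts and without organelle genes, and over all fits its adjusted p ran from 0.000525 to 0.359 in edgeR, DESeq2 and limma. PER62 (AT5G39580), the member closest to PER71 by coding sequence at 77.3% identity, averaged 4.16 ± 0.773 CPM with CsCl and 3.11 ± 1.13 CPM in Mock (log2 fold change 0.42 ± 0.23, adjusted p = 0.446 in edgeR). PER4 (AT1G14540), a gene induced by microbial elicitors, had 26, 8 and 14 counts with CsCl and 10, 22 and 18 counts in Mock, with groups that overlapped. Its neighbour PER5 (AT1G14550) had 4 counts in CsCl replicate 3 and 0 in the other libraries and was not tested. The summed level of the 6 genes was 80.3, 81.0 and 113.3 CPM with CsCl and 67.8, 53.7 and 57.7 CPM in Mock, and most of it was PER34.

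PER33 and PER34 are neighbouring copies with 90.3% identical coding bases, and 270 windows of 100 bases in their transcripts were at least 95% identical. How such reads were treated is not given, so they could be split between the genes or counted for both. Coding bases 61 to 180 of both are shown to mark where the copies differ, with the 21 differing bases in capitals (TAIR10.1, chromosome 3, plus strand).
PER33: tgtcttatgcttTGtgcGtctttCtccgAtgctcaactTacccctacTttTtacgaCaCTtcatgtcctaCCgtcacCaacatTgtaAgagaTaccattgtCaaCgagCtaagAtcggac
PER34: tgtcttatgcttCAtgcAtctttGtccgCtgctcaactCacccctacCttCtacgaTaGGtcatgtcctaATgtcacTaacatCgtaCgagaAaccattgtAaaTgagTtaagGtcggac
Whether the difference in PER33 counts includes reads of the more abundant PER34 was not tested.

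Of 5 peroxidases grouped here under lignin of vascular tissue 2 were higher and none was lower. Lignin peroxidases placed in other role groups, among them PER71, PER72 and PER64, are not counted here. PER52 (AT5G05340), needed for full lignification of stem fibres, had 18, 26 and 68 counts with CsCl and 6, 3 and 3 counts in Mock. All CsCl libraries were above all Mock libraries (log2 fold change 2.96 ± 0.55, adjusted p = 0.00939 in edgeR), a call that did not hold without CsCl replicate 3 or Mock replicate 3. With its few Mock counts PER52 entered the test through the CsCl libraries, and it was not tested with counts divided by 2 or with a filter of 1 CPM in 3 samples. PER25 (AT2G41480), which contributes to stem lignin, had 10.7, 11.8 and 11.5 CPM with CsCl and 6.40, 7.94 and 7.64 CPM in Mock. Again no library overlapped (log2 fold change 0.63 ± 0.11, adjusted p = 0.00795 in edgeR), and of the 17 other fits the one without CsCl replicate 2 lost the call (adjusted p = 0.0539 in edgeR).

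The other members of this group were not called. PER17 (AT2G22420), expressed in lignifying tissue, had 11.2, 13.2 and 13.5 CPM with CsCl and 10.9, 9.75 and 12.3 CPM in Mock, with overlap and a 95% interval of the log2 fold change of -0.028 to 0.45. The xylem vessel peroxidases PER47 (AT4G33420) and PER66 (AT5G51890) had log2 fold changes of -0.065 and -0.066, with intervals of -0.25 to 0.12 and -0.19 to 0.058. PER66 had lower values in each CsCl library than in any Mock library, by a small margin. Markers of xylem and secondary walls summed to 267.8, 273.4 and 280.7 CPM with CsCl and 279.7, 262.6 and 297.9 CPM in Mock, so these groups overlapped, and none of the markers was at 0.

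Of 5 peroxidases known to lignify the Casparian strip 2 were lower and none was higher. PER72 (AT5G66390) had 46.7, 44.1 and 45.2 CPM with CsCl and 58.8, 66.1 and 61.4 CPM in Mock. It was lower in every CsCl library (log2 fold change -0.46 ± 0.063, adjusted p = 0.00143 in edgeR) and was called in all 17 other fits. PER64 (AT5G42180), which is placed at the strip by the CASP scaffold proteins, had 29.7, 26.6 and 27.6 CPM with CsCl and 42.0, 40.4 and 33.9 CPM in Mock. Mock replicate 3 was the lowest Mock library and still above all CsCl libraries (log2 fold change -0.47 ± 0.083, adjusted p = 0.00795 in edgeR), though without CsCl replicate 2 the adjusted p was 0.0627 in edgeR. PER64 overlaps AT5G42190 on the other strand by 34 bases, and that gene was at 55.5 ± 1.23 CPM with CsCl and 57.9 ± 3.42 CPM in Mock.

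PER9 (AT1G44970), which also acts in pollen development, averaged 10.2 ± 0.972 CPM with CsCl and 12.8 ± 0.947 CPM in Mock, with all CsCl libraries below all Mock libraries, and did not pass (log2 fold change -0.33 ± 0.10, adjusted p = 0.131 in edgeR). PER3 stood at 62.9, 58.3 and 59.4 CPM with CsCl and 64.8, 69.0 and 61.1 CPM in Mock, where CsCl replicate 1 lay within the Mock range (log2 fold change -0.11, 95% interval -0.25 to 0.024, adjusted p = 0.458 in edgeR). PER39 (AT4G11290), a target of the root growth regulator UPB1, averaged 13.8 ± 0.549 CPM with CsCl and 13.4 ± 1.71 CPM in Mock. Its log2 fold change of 0.046 changed sign without Mock replicate 2 or Mock replicate 3. The 5 genes together summed to 164.6, 151.4 and 156.3 CPM with CsCl and 195.0, 200.3 and 181.2 CPM in Mock, and every CsCl sum was below every Mock sum.

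Of the 6 endodermis markers reported, 5 had a log2 fold change below 0. CASP1 (AT2G36100) and CASP2 (AT3G11550), which scaffold the Casparian strip, were lower, with log2 fold changes of -0.29 and -0.47 (adjusted p = 0.0468 and 0.00537 in edgeR). CASP4 and CASP5 had -0.31 and -0.23 and were not past the test (adjusted p = 0.350 and 0.498 in edgeR). The regulator MYB36 averaged 5.93 ± 0.463 CPM with CsCl and 6.53 ± 2.18 CPM in Mock. ESB1, with 0.608 ± 0.0598 CPM with CsCl and 0.311 ± 0.102 CPM in Mock, was the one above 0 (log2 fold change 0.97, adjusted p = 0.289 in edgeR). Its CsCl libraries all lay above its Mock libraries, though it was not past the test. The 6 markers summed to 85.6, 73.7 and 80.2 CPM with CsCl and 106.7, 97.8 and 92.9 CPM in Mock, and none was at 0. Their part in the lower levels of PER72 and PER64 was not tested.

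**Figure D2:**
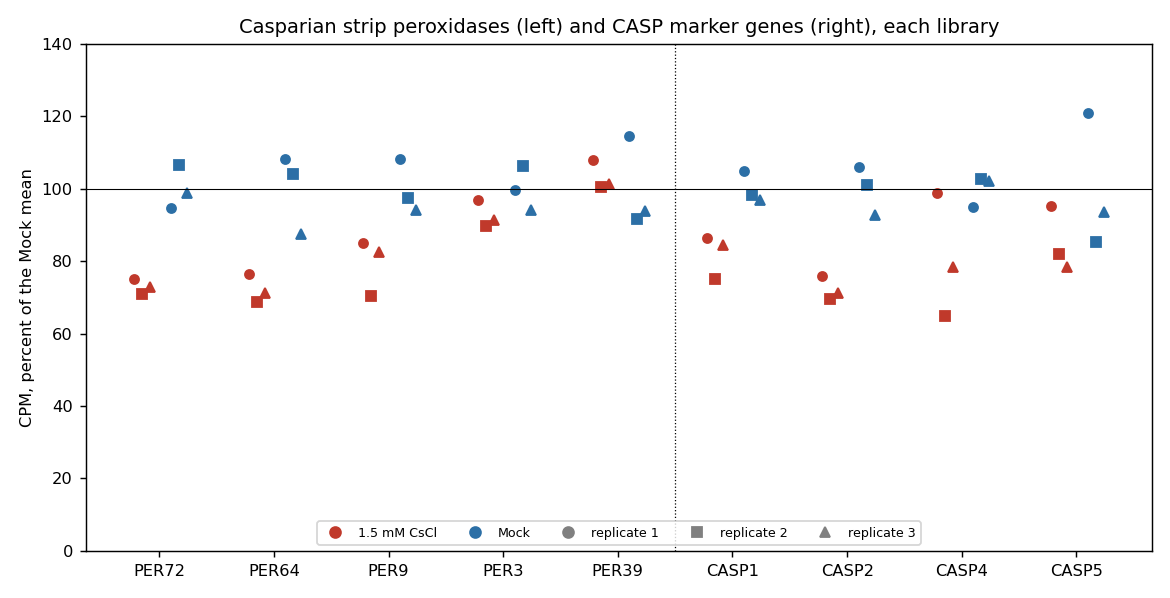
CPM in each library as a percentage of the gene's own Mock mean (vertical axis, from 0) for the 5 Casparian strip peroxidases on the left and CASP1, CASP2, CASP4 and CASP5 on the right. CsCl libraries stand left of the Mock libraries, and symbols give the replicate. PER72, PER64, PER9, CASP1 and CASP2 have no overlap between groups, whereas PER3, PER39, CASP4 and CASP5 overlap.

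All 8 root hair peroxidases had a log2 fold change below 0, and none passed the test. The values ran from -0.35 to -0.053, with 4 of 8 at an unadjusted p under 0.05 in edgeR, against 14.4% of all tested genes. DESeq2 and limma-voom called 0 of the 8. PER35 (AT3G49960) was the one without overlap between groups, at 49.9, 40.5 and 44.7 CPM with CsCl and 57.0, 50.9 and 52.2 CPM in Mock (log2 fold change -0.25 ± 0.077, adjusted p = 0.139 in edgeR). PER8 (AT1G34510) had the lowest value, -0.35 ± 0.12, and was past the test without CsCl replicate 1 (adjusted p = 0.0355 in edgeR). The 8 genes summed to 438.6, 341.8 and 367.0 CPM with CsCl and 431.6, 408.1 and 449.8 CPM in Mock, so CsCl replicate 1 was in the Mock range and the other CsCl libraries were below it.

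PER44 (AT4G26010) and PER73 (AT5G67400), which with PER1 (AT1G05240) promote root hair growth, had log2 fold changes of -0.053 and -0.20, and PER1 had -0.077. Their 95% intervals were -0.22 to 0.11, -0.43 to 0.023 and -0.28 to 0.12. The counts of PER1 cannot be told apart from those of its neighbour PER2, which is in no role group. PER60 (AT5G22410), a gene specific to root hairs, averaged 19.2 ± 3.88 CPM with CsCl and 23.6 ± 1.08 CPM in Mock. PER7 (AT1G30870) and PER57 (AT5G17820), the second another UPB1 target, had log2 fold changes of -0.17 and -0.18. Markers of root hairs summed to 286.7, 237.4 and 254.3 CPM with CsCl and 319.6, 315.4 and 314.0 CPM in Mock. All 6 had a log2 fold change below 0, PRP1 and PRP3 were lower, none was at 0, and their part in the values of the peroxidases was not tested.

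Per kb of exon the most abundant members were PER42, PER32, PER45, PER12, PER21 and PER57, and 3 of these 6 were lower with CsCl. PER42 (AT4G21960), also called PRXR1, made up 34.1% of the summed CPM of the members and averaged 516.3 CPM per kb with CsCl and 620.3 CPM per kb in Mock. Its libraries had 940.7, 962.1 and 929.9 CPM with CsCl and 1161.1, 1096.1 and 1146.3 CPM in Mock. These groups were apart by more than their spread (log2 fold change -0.26 ± 0.057, adjusted p = 0.0276 in edgeR). The call was lost without Mock replicate 1 and without any of the CsCl libraries.

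PER45 (AT4G30170) had 146.2, 136.1 and 138.8 CPM with CsCl and 166.3, 165.4 and 173.1 CPM in Mock (log2 fold change -0.26 ± 0.056, adjusted p = 0.0263 in edgeR). PER21 (AT2G37130), the member nearest to PER42 by coding sequence at 58.9% identity, had 116.8, 115.0 and 115.6 CPM with CsCl and 132.4, 139.6 and 139.0 CPM in Mock (log2 fold change -0.24 ± 0.054, adjusted p = 0.0324 in edgeR). Both genes had tight groups that did not overlap. Even so, PER45 lost its call without Mock replicate 3 and without CsCl replicate 2 or 3, and PER21 lost it on leaving out any library but Mock replicate 1. Both also lost it with library totals as the only scaling.

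PER32 (AT3G32980), PER12 (AT1G71695) and PER57 were not called. PER32, whose coding sequence is 83.9% identical to that of PER34, averaged 269.9 ± 15.3 CPM with CsCl and 291.3 ± 26.8 CPM in Mock (log2 fold change -0.11, 95% interval -0.26 to 0.045). PER12 averaged 129.8 ± 7.63 CPM with CsCl and 133.8 ± 0.551 CPM in Mock, with an interval of -0.17 to 0.081. PER57 had an interval of -0.33 to -0.02 and an adjusted p of 0.282 in edgeR.

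The remaining call was PER55 (AT5G14130), at 7.50, 6.44 and 8.62 CPM with CsCl and 11.5, 10.3 and 10.5 CPM in Mock. All CsCl values were below all Mock values (log2 fold change -0.51 ± 0.12, adjusted p = 0.0402 in edgeR). It lost the call on leaving out any library but CsCl replicate 3, with upper-quartile factors and with library totals only.

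Of the 36 members with no role group 32 were tested. In edgeR 4 were lower (PER42, PER45, PER21 and PER55) and none was higher. Among these 32, 16 had an unadjusted p under 0.05 in edgeR, against 14.4% of all tested genes. DESeq2 called 1 of them higher (PER49) and 6 lower, and limma-voom called 0 higher and 4 lower. The other 28 ran from a log2 fold change of -0.54 to 1.52. Of the 32 tested 9 lay entirely below Mock and 4 entirely above, together 40.6%. Over all tested genes this share was 19.8%, made up of 9.75% below and 10% above. At the lower end PER20 (AT2G35380) had 15.5, 12.8 and 16.7 CPM with CsCl and 28.0, 17.6 and 19.9 CPM in Mock. PER11 (AT1G68850) had 9.94, 9.77 and 11.2 CPM with CsCl and 20.3, 11.6 and 13.2 CPM in Mock. In both genes the groups did not overlap and Mock replicate 1 was the highest. At the upper end PER59 (AT5G19890) had 24, 20 and 27 counts with CsCl and 4, 8 and 10 counts in Mock, and PER10 (AT1G49570) had 20, 33 and 56 counts with CsCl and 18, 10 and 6 counts in Mock. None of these 4 genes, chosen after their values were seen, passed in the main fit (adjusted p = 0.0785, 0.127, 0.107 and 0.121 in edgeR). PER20 and PER11 were called lower in DESeq2 (adjusted p = 0.0137 and 0.0478), with no filter on low counts and without Mock replicate 2. PER59 and PER10 were called in no other fit. PER49 (AT4G36430) had 2.84, 4.35 and 4.82 CPM with CsCl and 2.86, 1.38 and 1.47 CPM in Mock, with overlap. Its log2 fold change was 1.08 ± 0.27 (adjusted p = 0.0582 in edgeR and 0.0118 in DESeq2).

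The 5 members that were not tested were PER5, PER6 (AT1G24110), PER36 (AT3G50990), PER41 (AT4G17690) and PER68 (AT5G58400). PER6 and PER41 had 0 counts in every library, which allows up to 3 counts, or between 0.0660 and 0.0926 CPM in a library, for counting error only. PER36, a gene of the seed coat, had 2 counts in CsCl replicate 1 and 2 in Mock replicate 3. PER68 had 0, 2 and 2 counts with CsCl and 2, 0 and 0 counts in Mock.

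**Figure D3:**
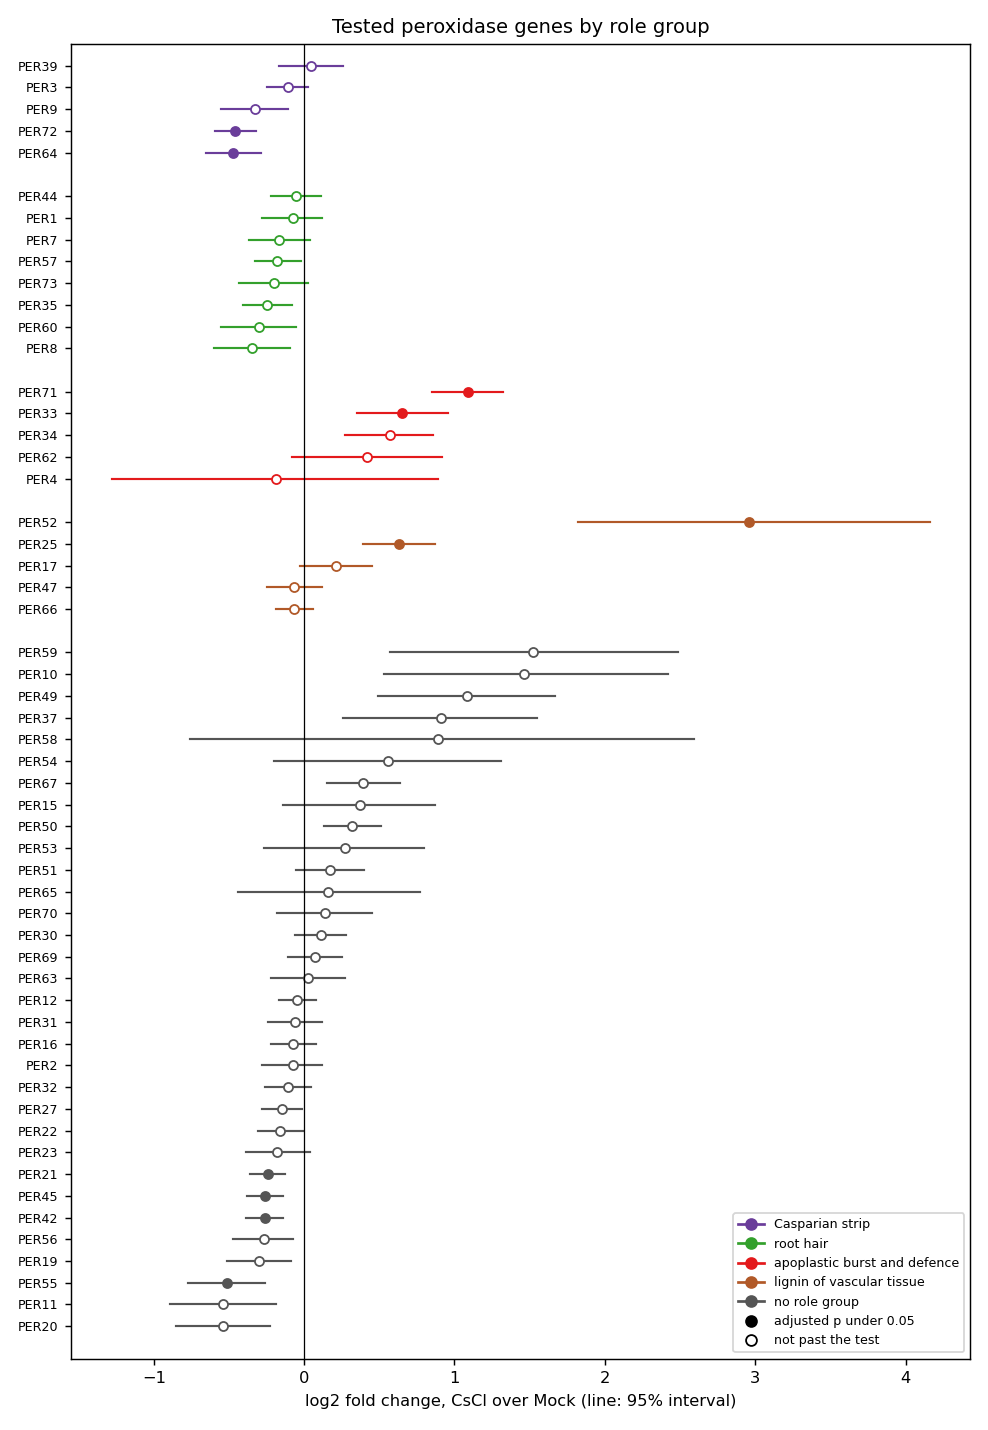
Log2 fold change of CsCl over Mock (horizontal axis) with its 95% interval for the 55 tested peroxidase genes, grouped by role. Filled points are past the test and open points are not. Below 0, 2 Casparian strip genes and 4 genes with no role group are filled, and above 0, 2 defence and 2 lignin genes are filled.

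Direction went with abundance among the peroxidases. Of the 36 tested members with a mean of at least 10 CPM 29 had a log2 fold change below 0 (80.6%, median -0.152), with 5 lower and none higher. Of the 19 under 10 CPM 17 were above 0 (median 0.556), with 4 higher and 1 lower. The 17 include PER52, with 6, 3 and 3 counts in Mock, and PER59, with 4, 8 and 10. PER10, with 18, 10 and 6 counts in Mock, and PER58 (AT5G19880), with 10, 0 and 4, are also among them. PER52 and PER59 entered the test through the CsCl libraries, where they were high, and PER10 and PER58 also needed CsCl libraries to enter. The place of these genes above 0 thus partly follows from the filter on low counts. Among all tested genes 52.7% were below 0 at or over 10 CPM and 42.9% under it. At 5 CPM in place of 10, 30 of 43 abundant members were below 0 and 11 of 12 less abundant members above it, and at 20 CPM the numbers were 22 of 26 and 20 of 29. These limits were chosen after the values were seen, and no test was made of them. PER1 and PER2, whose counts cannot be told apart, both count among the abundant members below 0.

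**Figure D4:**
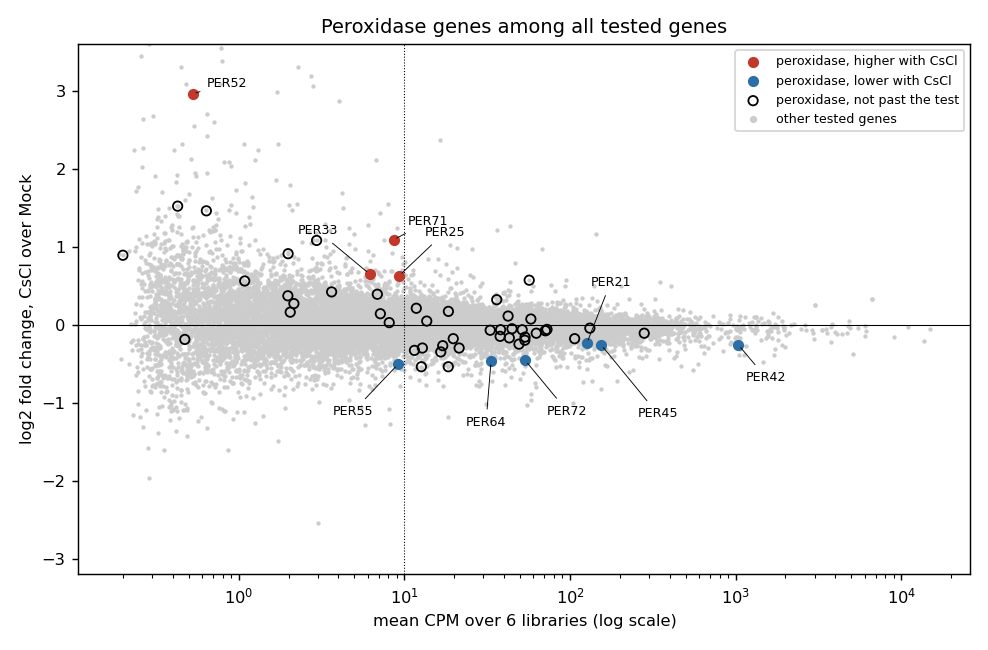
Mean CPM over the 6 libraries (horizontal axis, log scale) against the log2 fold change of CsCl over Mock (vertical axis, clipped, so that a few other genes lie outside) for all 21005 tested genes in grey, with peroxidases as larger circles, filled where called. The dotted line marks 10 CPM, left of which 17 of 19 peroxidases are above 0 and right of which 29 of 36 are below. PER52, PER59, PER10 and PER58, among the 17, needed CsCl libraries to enter the test.

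Peroxidase genes often lie side by side, and 20 of the 60 members fall into 9 groups with gaps of at most 10 kb. In the run PER69 (AT5G64100), PER70 (AT5G64110) and PER71, the log2 fold changes were 0.072, 0.14 and 1.09, with 95% intervals of -0.11 to 0.25, -0.18 to 0.45 and 0.85 to 1.32. The intervals of PER69 and PER70 do not reach that of PER71, though the difference itself was not tested. PER69 averaged 59.5 ± 6.01 CPM with CsCl and 56.6 ± 5.75 CPM in Mock, and PER70 averaged 7.50 ± 0.897 CPM with CsCl and 6.83 ± 1.26 CPM in Mock. PER69 shares 58.8% of coding bases with PER71 and 69.1% with PER70, against a median of 48.0% over all 1770 pairs of members.

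The counts of the neighbours PER1 and PER2 (AT1G05250) cannot be told apart. Their coding sequences were identical, and PER1 had 2609, 2178 and 2940 counts with CsCl and 2216, 2332 and 2772 counts in Mock while PER2 had 2607, 2179 and 2932 counts with CsCl and 2216, 2329 and 2768 counts in Mock. PER3, the next gene of that run, shares 52.0% of coding bases with PER1. In all, 12 members shared a window of 100 bases at 95% identity or more with another gene. They are the pairs PER1 and PER2, PER22 and PER23, PER33 and PER34, PER50 and PER51, and PER53 and PER54, and the single members PER15 and PER37. The copies of the last 2, AT2G18140 and AT4G08780, had 0.0676 and 0.609 CPM with CsCl and 0.0301 and 0.543 CPM in Mock.

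**Figure D5:**
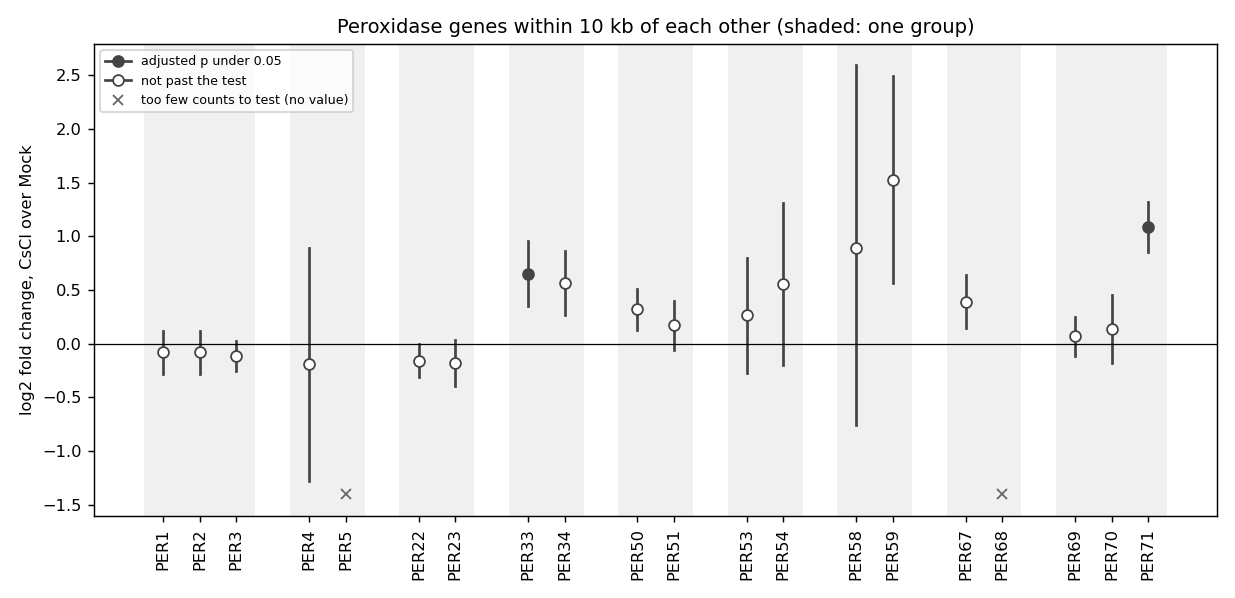
Log2 fold change of CsCl over Mock with its 95% interval (vertical axis) for the 20 peroxidase genes that lie within 10 kb of another, in shaded blocks by group. PER33 and PER71 are filled because they are past the test, PER5 and PER68 had too few counts for a value and are marked by crosses, and PER69 and PER70 sit near 0 beside PER71.

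Most genes that work with these enzymes were not called. The shares called were still 12.5% of tested NADPH oxidases, 5.56% of lignin monomer genes and 25.0% of extensins and proline-rich wall proteins. Among all tested genes 2.16% were called, and among regulators of peroxidase genes none. Of 10 NADPH oxidases, which supply the superoxide that becomes hydrogen peroxide, 8 were tested, 1 was lower and none was higher. The lower gene was AT1G19230, with 12.3, 12.1 and 12.5 CPM with CsCl and 18.3, 16.3 and 17.5 CPM in Mock and no overlap (log2 fold change -0.50 ± 0.084, adjusted p = 0.00614 in edgeR). RBOHD, known from defence, averaged 56.0 ± 1.18 CPM with CsCl and 54.7 ± 1.18 CPM in Mock, and RBOHF, known from the Casparian strip, averaged 33.5 ± 1.84 CPM with CsCl and 32.2 ± 2.87 CPM in Mock. RHD2, the root hair oxidase, averaged 17.4 ± 0.823 CPM with CsCl and 17.1 ± 2.97 CPM in Mock, and none of these 3 was called.

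Synthesis of lignin monomers had 1 of 18 genes lower and none higher, with a median log2 fold change of -0.091 and 15 of 18 below 0. CCR1 (AT1G15950), an enzyme of the branch specific to lignin monomers, had 45.2, 46.8 and 43.1 CPM with CsCl and 56.1, 54.0 and 59.1 CPM in Mock (log2 fold change -0.33 ± 0.062, adjusted p = 0.0123 in edgeR, lost without CsCl replicate 3). Extensins and proline-rich wall proteins, among them substrates of wall peroxidases, had 1 of 12 higher and 2 lower. In this list 10 of 12 had an unadjusted p under 0.05 in edgeR, against 14.4% of all tested genes. EXT4 (AT1G76930), an extensin, had 158.3, 185.1 and 249.0 CPM with CsCl and 110.3, 85.9 and 69.2 CPM in Mock and was higher in every CsCl library (log2 fold change 1.16 ± 0.16, adjusted p = 0.00130 in edgeR, not past the test with robust estimation). PRP1 (AT1G54970) and PRP3 (AT3G62680), which are also among the root hair markers, were lower, with log2 fold changes of -0.34 and -0.36 (adjusted p = 0.0281 and 0.0320 in edgeR). Without Mock replicate 3 the list had 7 lower, without Mock replicate 1 or 2 it had 1, and without CsCl replicate 2 or 3 it had 0. The 11 members other than EXT4 had log2 fold changes from -0.37 to -0.096.

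Of 5 regulators of peroxidase genes none was called in edgeR, DESeq2 or limma-voom. An unadjusted p under 0.05 in edgeR was found for 1 of the 5, against 14.4% of all tested genes. UPB1, which represses root peroxidases, averaged 4.80 ± 0.746 CPM with CsCl and 4.48 ± 1.34 CPM in Mock. RSL4, which drives root hair growth, averaged 4.63 ± 0.160 CPM with CsCl and 6.18 ± 0.497 CPM in Mock, without overlap between groups (log2 fold change -0.42 ± 0.13, adjusted p = 0.143 in edgeR).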

How the data were processed

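RNA was treated with DNase and made into libraries by a stranded method for messenger RNA, as the labels say. The deposited files hold raw counts per gene, 1 file per library, and are not normalized. FastQC, STAR, featureCounts, edgeR and the build TAIR10 appear in the submitters' processing notes. Their versions, the annotation release and how strand and multi-mapping reads were treated are not given there.

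Counts were tested in R 4.3.3 with edgeR 4.0.16: filterByExpr on the group, TMM scaling factors (0.961 to 1.03), and the quasi-likelihood test with the group as the sole term. P-values were adjusted over all tested genes by Benjamini-Hochberg, with a threshold of 0.05. The SE was taken from the unshrunk coefficient and F, and the 95% interval uses it with the degrees of freedom of the fit. The fit was tested on simulated data. CPM are relative to TMM-scaled library sizes, and CPM per kb divides by the exon length of the gene.

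Members, role groups and lists were chosen with earlier results of these data known. An endodermis marker is not reported here. Named members are those past the test, the 6 highest per kb, those of the 4 role groups, and neighbours of a named member. Of each companion list the 2 genes with the smallest adjusted p per direction past the test are named, and a few more were named for their role. Alternatives used DESeq2 1.42.0 and limma 3.58.1 (voom). Gene models, names and sequences came from RefSeq TAIR10.1. Coding identity used MAFFT 7.526 and shared windows BLAST 2.17.0. Within each group no library was a copy of another (chi-square per gene 6.24 to 12.7).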

Additional observations from a re-analysis of the deposited data

How the results depend on the processing

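RLE factors, robust estimation and limma-voom each left 4 members higher and 6 lower. With no filter on low counts 7 were higher and 9 lower, over all genes 301 and 518 in place of 177 and 277, 1 root hair peroxidase was lower, 2 members with no role group were higher and 6 wall proteins (extensins and proline-rich proteins) were lower. An adjusted p under 0.01 left 80 genes higher and 106 lower, 2 members lower, 1 defence peroxidase higher, and 0 lower among members with no role group, lignin monomer genes and wall proteins. Library totals alone left 180 genes lower, 3 members lower, 1 lower with no role group and 0 lower wall proteins. DESeq2 called 1 member with no role group higher and 2 lignin monomer genes lower, and robust estimation called 0 wall proteins higher. With counts divided by 2, or a filter of 1 CPM in 3 samples, 1 vascular lignin peroxidase was higher.

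Leaving out 1 library at a time gave 89 to 231 genes higher and 90 to 330 lower, and 2 to 7 members higher and 1 to 6 lower. By group it gave 1 to 2 lower Casparian strip genes, 0 to 1 lower root hair genes, 1 to 3 higher defence genes, 1 to 2 higher vascular lignin genes, 0 to 2 higher and 0 to 4 lower with no role group, 0 to 1 lower lignin monomer genes and 0 to 7 lower wall proteins. The log2 fold change changed sign in 9 of the 55 tested members, none of them called: PER31, PER63, PER65, PER1 (-0.20 to 0.0045), PER2 (-0.20 to 0.004), PER4 (-0.87 to 0.11), PER39 (-0.019 to 0.15), PER44 (-0.15 to 0.0022) and PER69 (-0.015 to 0.13). For these changes the cause was not tested. Deviations of same-numbered libraries from their group means correlated at -0.0774, 0.0389 and -0.00956, and those of unlike-numbered libraries at -0.129 to 0.132. No pairing by replicate number was thus seen, but such correlations cannot settle whether the libraries were paired. A fit with a replicate block had 4 members higher and 3 lower in place of 6: PER42, PER45, PER21 and PER55 were not called (adjusted p = 0.120, 0.0752, 0.0949 and 0.0587 in edgeR), and the 1 with no role group that was lower was PER20 (0.0412). Low counts limit PER52, PER4, PER10, PER58 and PER59, whose 95% intervals are the widest of the members tested.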
